A study of Saccharomyces cerevisiae S288C with 18 samples.

Results

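The sterol pathway of Saccharomyces cerevisiae was followed here through 30 genes, taken by name from the 6692 genes of the count table: 25 enzymes and electron donors of ergosterol synthesis, the transcription factors Upc2p and Ecm22p, and 3 enzymes that store sterols as steryl esters or release them. Yeast S288C was grown in RPMI-1640 at 30 °C, and mRNA of 18 cultures was sequenced in 6 groups of 3 biological replicates. AMB cultures received the polyene antifungal amphotericin B at 0.03 µg/mL for 60 minutes, AMB-LF cultures received 0.03 µg/mL AMB with 2 µg/mL of the iron-binding milk protein lactoferrin (LF) for 50 minutes, and LF cultures received 2 µg/mL LF for 50 minutes. Each treatment had its own matched control of untreated cultures, labelled 60 minutes for AMB and 50 minutes for AMB-LF and LF.

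Ergosterol is the main sterol of the yeast plasma membrane and the molecule to which AMB binds. Its synthesis starts with the mevalonate pathway, which turns acetyl-CoA into isoprenoid units, continues through farnesyl diphosphate and squalene to lanosterol, and ends with a series of demethylations, isomerisations and desaturations that give zymosterol and then ergosterol. Several of the late steps use molecular oxygen and heme or iron, and Upc2p and Ecm22p activate many of the genes through a short upstream sequence called the sterol response element.

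Totals ran from 6799569 to 9696467 counts in the 12 HiSeq libraries (AMB, AMB-LF and their controls, over lanes 1 and 2) and from 23925944 to 30172836 in the 6 NextSeq libraries (LF and its control). All 30 genes passed the filter on low counts in both sets, and the smallest count of any of them in a HiSeq library was 269. All 3 controls for AMB-LF were on lane 1 and AMB-LF replicates 2 and 3 on lane 2, so that AMB-LF replicate 1 alone shared a lane with its control. A sample plot in the study's supplement names the untreated HiSeq groups the other way round from the labels used here, and the deposited growth protocol gives their durations the other way round, whereas the study's methods and its table of experiments give the durations as the labels do. The study's listed fold changes for MCR1, a related gene counted below, also have the directions that these labels give. The labels were followed, and values with these control labels exchanged are given where they make or end the call of a gene described. Levels are given as CPM, the counts scaled to library size. Genes that respond to zinc limitation stood out in the control for AMB-LF, where 6 of 8 were higher than in the control for AMB, against 15.2% of all genes tested. Their summed level was 13245 to 24155 CPM there, against 1392 to 3615 CPM in the control for AMB. This list was chosen with earlier results of these data known, so its count and levels describe the groups and test nothing. Genes of a-type cells were abundant in every library, with MFA1 between 231 and 516 CPM and STE2 between 631 and 1049 CPM, whereas the alpha-cell gene MF(ALPHA)1 stayed below 1 CPM, although the S288C reference strain is of the alpha type.

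Upstream sequences were read because the known regulators act there. In the 500 bases before each start codon, both strands were searched for the letters TCGTATA (core of the sterol response element) and for TCGTTTAG or TCGTTCAG (an element described in anaerobically induced genes, here the anaerobic element). TCGTATA was found upstream of 9 of the 30 genes (30.0%) and of 420 of 6006 genes in the genome (6.99%). The anaerobic element was found upstream of 12 of the 30 (40.0%) and of 191 of 6006 (3.18%). Either was found upstream of 19 of the 30 (63.3%) and of 594 of 6006 (9.89%), and no match of one element can overlap a match of the other. A match describes the letters only, and the absence of one says nothing about the factor.

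Matches of the genes whose levels are described most fully are printed with 11 bases on each side, 5′ to 3′ on the gene's coding strand (RefSeq R64), the matched letters in capitals; the other strand carries the element where the capitals read TATACGA or CTAAACGA.
MVD1 (chrXIV:701784-701813, plus strand): gccgaaatggcTCGTTTAGccttttctcga
ERG20 (chrX:104811-104840, plus strand): tctcgtcggttCTAAACGAaacgccttgtt
ERG1 (chrVII:848788-848816, minus strand): gtagcgggcctTCGTATAgctcggccgag
ERG11 (chrVIII:121799-121828, minus strand): gataagcagtaTCGTTCAGcgtgtgtattt
ERG3 (chrXII:253431-253460, plus strand): cccactgcggcCTAAACGAccgagatcggt
ERG3 (chrXII:253492-253521, plus strand): cattatttcggTCGTTTAGttgcgccccag
ERG3 (chrXII:253524-253552, plus strand): caaccggggtgTATACGAggccgatggct
ERG3 (chrXII:253564-253592, plus strand): aaaattcaggcTCGTATAagtggcacaat
CYB5 (chrXIV:417560-417588, minus strand): aaaaagaaagcTATACGAgatcgagatag
CYB5 (chrXIV:417378-417407, minus strand): ctcaaaaatttTCGTTCAGgcttcctcgtt
UPC2 (chrIV:889380-889409, plus strand): tatttttttctCTAAACGAgcgcaccttag
ARE1 (chrIII:211764-211793, plus strand): cgtggttggacTCGTTTAGcgaacaatagc

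**Figure D1:**
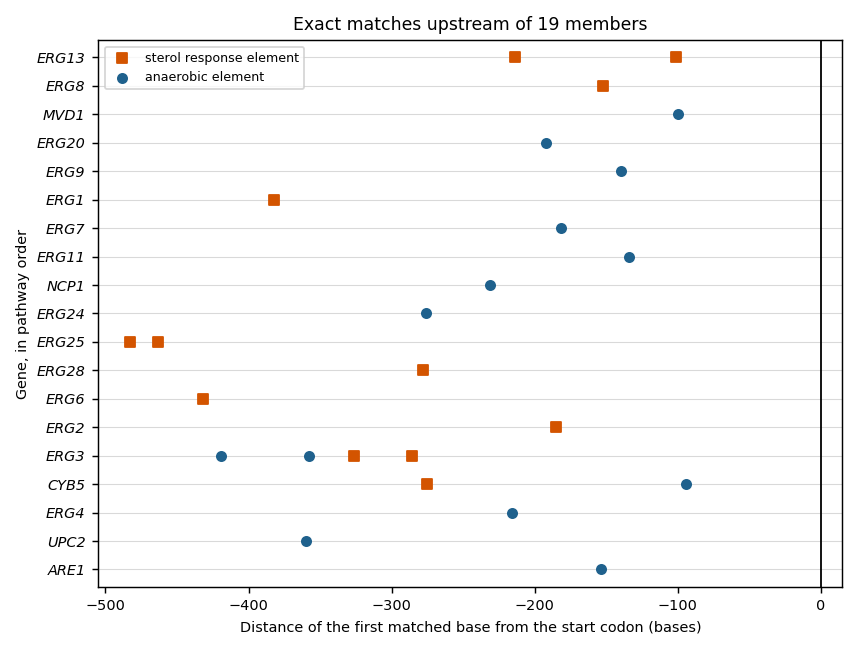
Distance in bases from the start codon of the exact matches upstream of the 19 genes that had any (squares, sterol response element; circles, anaerobic element). ERG3 carried 2 of each and CYB5 carried 1 of each, and ERG13 and ERG25 carried 2 sterol response elements.

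ERG3 held 4 matches, more than any other of the 30 genes, and ERG5, IDI1, ECM22, HMG1 and HMG2 were among the 11 genes without either element.

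The untreated level of the genes spanned a wide range. Per kilobase of coding sequence, the methyl oxidase gene ERG25 was the most abundant in the control for AMB at 835 CPM per kb, followed by the desaturase gene ERG3 at 787, the demethylase gene ERG11 at 597 and the isomerase gene ERG2 at 553 CPM per kb. The regulators were the least abundant, with UPC2 at 17.3 and ECM22 at 21.8 CPM per kb, and the HMG-CoA reductase gene HMG2 followed at 29.0 CPM per kb. Summed over the 30 genes, the level was 8864 to 9329 CPM in the control for AMB and 7358 to 7574 CPM with AMB. It was 8325 to 8682 CPM in the control for AMB-LF and 7243 to 7734 CPM with AMB-LF. The treated libraries were thus below every control library in both comparisons. With LF the sum was 8439 to 9533 CPM and in its control 8691 to 9065 CPM, and these groups overlapped. In these cultures, less mRNA in every cell and a stronger loss in some of the cells cannot be told apart.

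**Figure D2:**
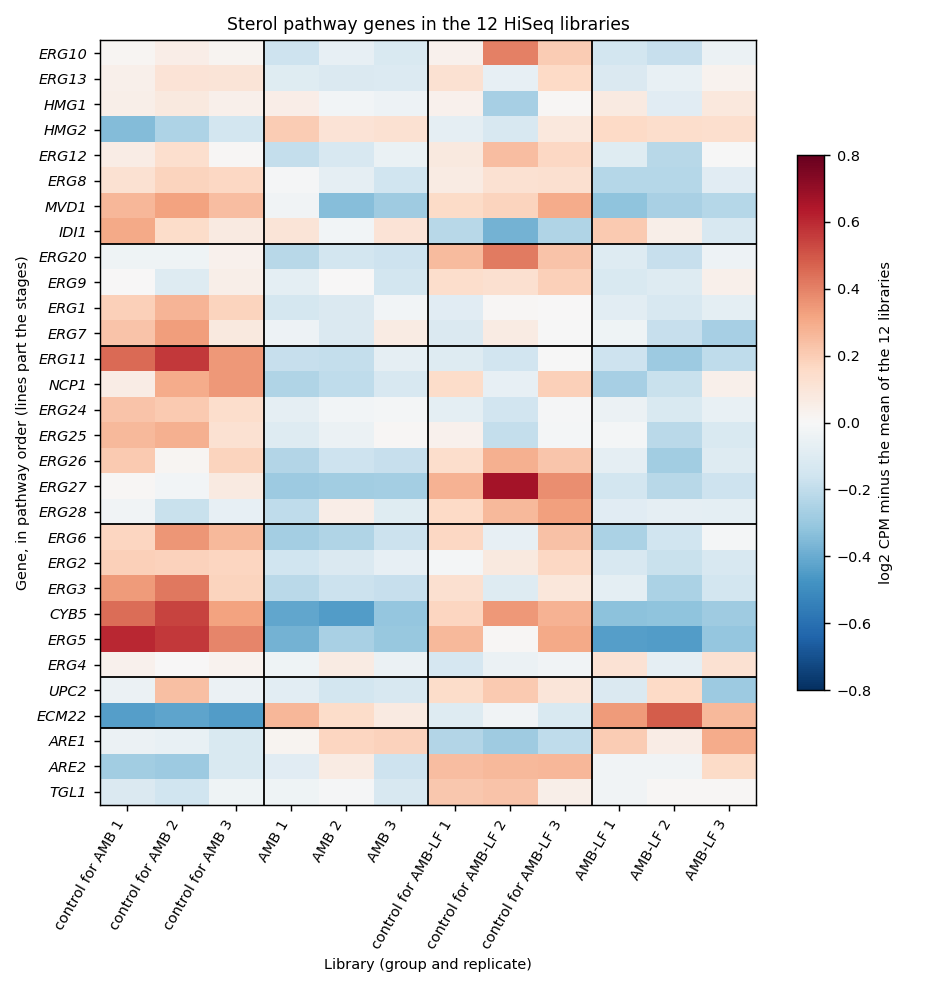
Level of the 30 genes in each HiSeq library, as log2 CPM minus the mean of the gene over the 12 libraries (colour; red higher, blue lower), with genes in pathway order and horizontal lines between stages. ERG5, CYB5, ERG11 and ERG3 were high in the control for AMB, ERG27 was high in the control for AMB-LF, and ECM22 was low in the control for AMB.

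AMB treatment was compared with its matched control to see which steps of the pathway changed under the drug alone. Expression of 15 of the 30 genes was lower and of 3 higher, by edgeR's quasi-likelihood test at an adjusted p below 0.05, the threshold for every call here. Over all 5456 genes tested, 18.4% were lower and 18.7% were higher. The median log2 fold change of the 30 genes was -0.21, against -0.019 for all genes tested, and 24 of the 30 values were below 0. The medians were lowest in the late steps. Of the 6 genes from zymosterol to ergosterol 5 were lower (median -0.49), of the 7 from lanosterol to zymosterol 6 were lower (median -0.30), and of the 8 mevalonate genes 2 were lower and 1 higher (median -0.16). All 5 genes of oxygen-using steps (ERG1, ERG11, ERG25, ERG3 and ERG5) were lower, with a median of -0.52.

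ERG5 (YMR015C, a single-exon gene like all 30, with its coding sequence at chrXIII:300869-302485 in R64) encodes the heme-containing desaturase near the end of the pathway and had the largest change. Its level was 313, 305 and 270 CPM in the control for AMB and 158, 172 and 167 CPM with AMB, and the groups did not overlap. This was a log2 fold change of -0.84 (SE 0.09, n = 3 per group, adjusted p = 4.71e-05), a fall by 44.3%. CYB5 (YNL111C, chrXIV:416940-417302), which encodes the cytochrome b5 that carries electrons to sterol desaturation, was at 97.8, 105 and 89.8 CPM in the control and 53.8, 52.7 and 57.9 CPM with AMB. All treated libraries were again below all controls, with a log2 fold change of -0.82 (SE 0.08, adjusted p = 1.42e-05). Within a lane the values were -0.94 and -0.77 for ERG5 and -0.90 and -0.73 for CYB5, in lanes 1 and 2. Each such value has a single library on one side, control replicate 1 in lane 1 and AMB replicate 3 in lane 2. With exchanged control labels ERG5 was at -0.51 and CYB5 at -0.67, both still called.

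ERG11 (YHR007C, chrVIII:120091-121683), which encodes the heme-containing lanosterol demethylase that azole drugs inhibit, was at 947, 1025 and 882 CPM in the control for AMB and at 610, 606 and 660 CPM with AMB. The groups were well apart, with a log2 fold change of -0.60 (SE 0.09, adjusted p = 0.00042) and values of -0.66 and -0.51 within lanes 1 and 2. With the control labels exchanged the value was -0.07 and the call was lost. ERG3 (YLR056W, chrXII:253861-254958), whose iron-containing desaturase acts shortly before ergosterol, was at 877, 931 and 784 CPM in the control and 598, 615 and 610 CPM with AMB. No treated library reached a control library, and the log2 fold change was -0.52 (SE 0.10, adjusted p = 0.00167), or -0.22 and no longer called with exchanged control labels. ERG6, the sterol methyltransferase gene, fell by 0.45 on the log2 scale, and ERG2, the sterol isomerase gene, fell by 0.29. ERG4, which encodes the last enzyme, was the exception among the late genes at -0.05 (SE 0.08).

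The genes from lanosterol to zymosterol encode the demethylase, its electron donor, a reductase and a complex that removes the remaining methyl groups. NCP1, the reductase that supplies electrons to Erg11p, changed by -0.36, and the sterol reductase gene ERG24 by -0.23. With the control labels exchanged, ERG24 was at 0.052 and ERG25 at 0.021. Of the demethylation complex, ERG25 changed by -0.28, ERG26 by -0.35 and ERG27 by -0.30, and all were called, ERG27 at -0.72 with exchanged labels, whereas the gene of its scaffold protein, ERG28, was at 0.0012 (SE 0.08), or -0.32 and called with exchanged labels.

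Upstream of lanosterol, 2 of the 8 mevalonate genes and 2 of the 4 genes from farnesyl diphosphate to lanosterol were lower. MVD1 (YNR043W, chrXIV:701895-703085), the decarboxylase of the mevalonate pathway, was at 135, 141 and 134 CPM in the control for AMB and at 111, 88.9 and 92.5 CPM with AMB. The groups did not overlap, and the log2 fold change was -0.49 (SE 0.08, adjusted p = 0.00115). ERG8, a mevalonate pathway kinase, was lower by the test at -0.24, while ERG10, ERG13, ERG12 and IDI1 had values of -0.15, -0.18, -0.18 and -0.15 and were not called. With exchanged control labels IDI1 was called higher, at 0.39, and ERG10, ERG12, ERG20 and ERG9 were called lower. ERG1 (YGR175C, chrVII:846933-848423), which encodes squalene epoxidase, was at 746, 790 and 739 CPM in the control and 593, 602 and 644 CPM with AMB, and every treated library was below every control. Its log2 fold change was -0.29 (SE 0.07, adjusted p = 0.00909), or -0.08 and not called with exchanged control labels. ERG7, the lanosterol synthase gene, was called at -0.25 (-0.0045 and not called with exchanged labels), and ERG20 and ERG9, the farnesyl diphosphate and squalene synthase genes, were not called at -0.16 and -0.06.

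The HMG-CoA reductases, which catalyse the rate-limiting step, are encoded by a pair of paralogs that share no 75-base stretch of coding sequence. HMG2 (YLR450W, chrXII:1032627-1035764) was at 84.8, 90.9 and 97.4 CPM in the control for AMB and at 124, 116 and 117 CPM with AMB, and its log2 fold change was 0.40 (SE 0.07, adjusted p = 0.0018), or 0.17 and not called with the control labels exchanged. HMG1 was at 152, 154 and 151 CPM in the control and at 152, 145 and 142 CPM with AMB, overlapping, with a log2 fold change of -0.07 (SE 0.08). HMG2 was thus the only mevalonate gene called higher with AMB.

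Of the paired regulators, ECM22 rose and UPC2 was not called. ECM22 (YLR228C, chrXII:600019-602463) was at 53.2, 53.9 and 53.1 CPM in the control for AMB and at 87.0, 80.1 and 75.9 CPM with AMB, clearly apart, with a log2 fold change of 0.59 (SE 0.08, adjusted p = 0.000213), or 0.26 and still called with exchanged control labels. UPC2 was at 44.1, 53.9 and 44.1 CPM in the control and at 43.0, 41.2 and 41.6 CPM with AMB, all just below the control libraries, with a log2 fold change of -0.15 (SE 0.12, adjusted p = 0.326). Among the storage genes, ARE1 (YCR048W, chrIII:211929-213761), a sterol acyltransferase, was at 77.9, 77.4 and 74.0 CPM in the control and at 81.9, 90.9 and 91.8 CPM with AMB. Its log2 fold change of 0.21 (SE 0.07, adjusted p = 0.0457) was the weakest call, since it held in 1 of 6 fits that each left out 1 library (0.37 and called with exchanged control labels). ARE1 shares 12.7% of its 75-base stretches with the overlapping gene YCR050C. The other acyltransferase gene, ARE2, was at 118, 117 and 132 CPM in the control and 135, 150 and 128 CPM with AMB, overlapping, at 0.17 (SE 0.08), and the steryl ester hydrolase gene TGL1 was at 0.04 (SE 0.07). Neither of these was called, but with exchanged control labels both were lower, ARE2 at -0.32 and TGL1 at -0.22.

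Leaving out control for AMB replicate 1 reduced the genes called lower from 15 to 9, and the 5 other omissions gave 12 to 14. These counts stand without the share of all genes called in the same fits. ERG5, CYB5, ERG11, ERG3, MVD1, ERG6, ERG26, HMG2 and ECM22 kept their call in all 6 of these fits.

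**Figure D3:**
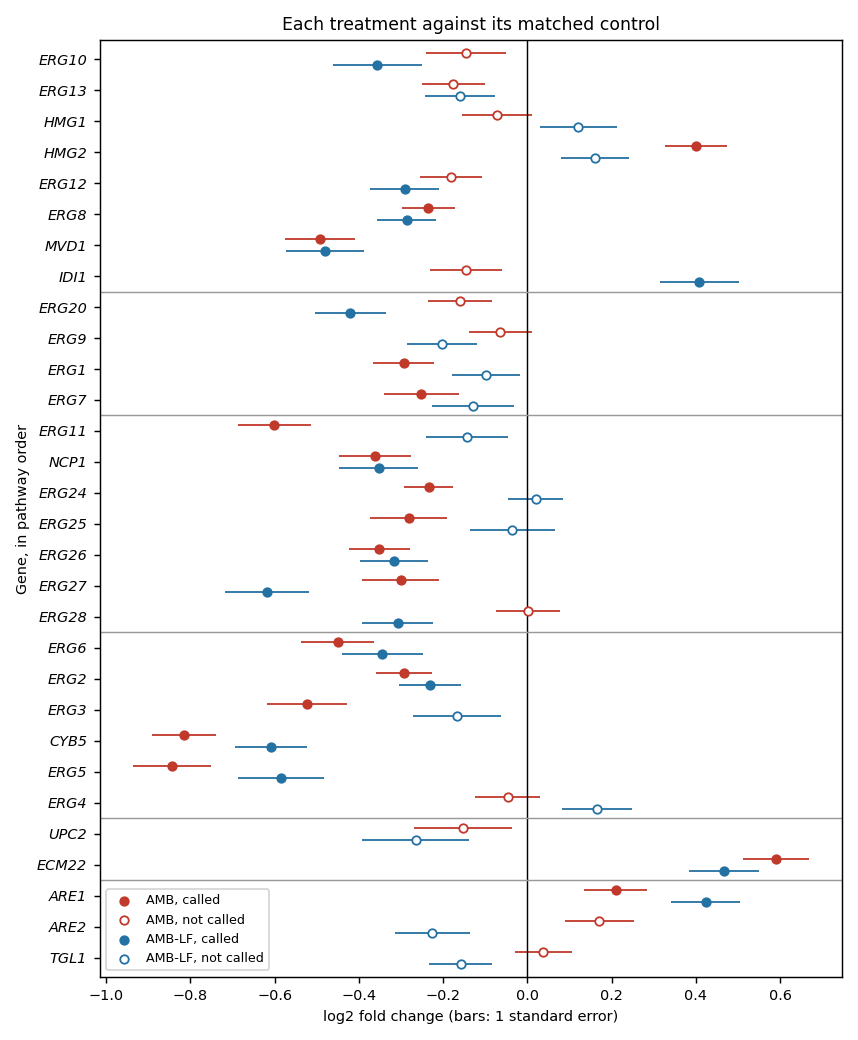
Log2 fold change of each gene with AMB (red) and with AMB-LF (blue) against its own matched control, with 1 standard error; filled circles were called at an adjusted p below 0.05. Most filled circles lie left of 0, from ERG5 at -0.84 with AMB, and ECM22 and ARE1 lie right of 0 in both treatments.

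AMB-LF treatment was compared with its own control to see whether the pathway responded alike when LF was added. Expression of 13 of the 30 genes was lower and of 3 higher. Over all 5456 genes tested, 15.1% were lower and 14.1% higher. Scaled to library size alone, 17 of the 30 were lower and 3 higher, beside 23.8% and 10.2% of all genes. The median log2 fold change of the 30 genes was -0.21, against -0.0095 for all genes, and 23 values were below 0. By stage, 4 of 8 mevalonate genes were lower (median -0.22), 1 of 4 from farnesyl diphosphate to lanosterol (median -0.17), 4 of 7 from lanosterol to zymosterol (median -0.31) and 4 of 6 from zymosterol to ergosterol (median -0.29). Of the 5 genes of oxygen-using steps 1, ERG5, was lower.

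ERG27 (YLR100W, chrXII:341810-342853), the keto reductase gene of the demethylation complex, had the largest change. Its level was 153, 201 and 164 CPM in the control for AMB-LF and at 115, 109 and 113 CPM with AMB-LF, and the groups did not overlap. The log2 fold change was -0.62 (SE 0.10, adjusted p = 0.000951), or -0.20 and not called with the control labels exchanged. CYB5 was at 80.8, 91.3 and 86.8 CPM in the control and at 57.1, 57.3 and 58.8 CPM with AMB-LF, again without overlap, with a log2 fold change of -0.61 (SE 0.08, adjusted p = 0.000326). ERG5 was at 247, 208 and 255 CPM in the control and 152, 151 and 166 CPM with AMB-LF. The groups were apart, at -0.59 (SE 0.10, adjusted p = 0.00168), or -0.92 with exchanged control labels. Within lane 1, CYB5 was at -0.60, ERG5 at -0.65 and ERG27 at -0.60, the latter with an adjusted p of 0.069.

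ERG11 was at 644, 622 and 692 CPM in the control for AMB-LF and at 617, 567 and 602 CPM with AMB-LF. The libraries lay just apart, and the log2 fold change of -0.14 (SE 0.10, adjusted p = 0.283) was not called, or -0.68 and called with the control labels exchanged. ERG3 was at 759, 645 and 738 CPM in the control and at 658, 582 and 626 CPM with AMB-LF, overlapping, at -0.17 (SE 0.11, adjusted p = 0.251), or -0.47 and called with exchanged labels. Of the remaining late genes, NCP1 (-0.35), ERG26 (-0.32), ERG28 (-0.31), ERG6 (-0.34) and ERG2 (-0.23) were lower. The groups overlapped for NCP1 and ERG6, and the ERG2 call held in 1 of 6 fits that each left out 1 library. ERG24 (0.02), ERG25 (-0.04) and ERG4 (0.17) were not called. With exchanged control labels ERG28 was at 0.010 and not called, and ERG24 (-0.27) and ERG25 (-0.34) were called lower.

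In the mevalonate pathway MVD1 was at 126, 128 and 138 CPM in the control for AMB-LF and at 90.1, 94.4 and 96.5 CPM with AMB-LF. All treated libraries were lower, with a log2 fold change of -0.48 (SE 0.09, adjusted p = 0.00313). The thiolase gene ERG10 (-0.36), the mevalonate kinase gene ERG12 (-0.29) and ERG8 (-0.29) were lower as well, while ERG13, the HMG-CoA synthase gene, was not called at -0.16. The ERG10 and ERG12 calls were lost with the control labels exchanged. IDI1 (YPL117C, chrXVI:327864-328730), the isomerase that interconverts the isoprenoid units, went the other way, from 171, 154 and 170 CPM in the control to 232, 207 and 184 CPM with AMB-LF. Its groups did not overlap, and its log2 fold change was 0.41 (SE 0.09, adjusted p = 0.00779), or -0.13 with the control labels exchanged. HMG2 was at 103, 98.8 and 114 CPM in the control and at 120, 119 and 119 CPM with AMB-LF, a log2 fold change of 0.16 (SE 0.08). HMG1 was at 150, 122 and 147 CPM in the control and at 154, 138 and 155 CPM, overlapping, a log2 fold change of 0.12 (SE 0.09). Neither paralog was called, though HMG2 was with exchanged control labels, at 0.39.

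ERG20 (YJL167W, chrX:105014-106072), which supplies farnesyl diphosphate to sterols and to other isoprenoids, was at 524, 586 and 515 CPM in the control for AMB-LF and at 408, 387 and 427 CPM with AMB-LF. These groups were far apart, with a log2 fold change of -0.42 (SE 0.08, adjusted p = 0.00375), or -0.10 and not called with exchanged control labels. ERG9 (-0.20), ERG1 (-0.10) and ERG7 (-0.13) were not called, though ERG1 (-0.31) and ERG7 (-0.38) were with exchanged labels.

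ECM22 rose again, from 67.3, 70.9 and 66.5 CPM in the control for AMB-LF to 91.4, 101 and 86.4 CPM, with a log2 fold change of 0.47 (SE 0.08, adjusted p = 0.00199), or 0.80 with exchanged control labels. UPC2 was at 50.4, 52.6 and 48.6 CPM in the control and at 42.0, 50.9 and 37.3 CPM with AMB-LF, overlapping, at -0.27 (SE 0.13, adjusted p = 0.139). ARE1 rose from 68.6, 66.3 and 70.1 CPM to 92.9, 84.1 and 98.9 CPM, without overlap, at 0.42 (SE 0.08, adjusted p = 0.00321), or 0.27 and still called with exchanged labels. ARE2 was at 169, 171 and 172 CPM in the control and at 140, 140 and 159 CPM with AMB-LF, all below the control, at -0.23 (SE 0.09, adjusted p = 0.0791), and TGL1 was at -0.16 (SE 0.07). Neither passed the test, and with exchanged control labels ARE2 was called higher at 0.26 and TGL1 was at 0.097.

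Without AMB-LF replicate 1 the genes called lower dropped from 13 to 2, CYB5 and ERG27, and those called higher from 3 to 2, ECM22 and ARE1. The 5 other omissions gave 11 to 14 lower genes. That library was the only AMB-LF library on the lane of its controls. The counts of these omissions also stand without the share of all genes called in the same fits.

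The called genes of the separate comparisons were then set side by side. Of the 30 genes, 9 were lower in both treatments: MVD1, ERG8, NCP1, ERG26, ERG27, ERG6, ERG2, CYB5 and ERG5. Of all 5456 genes tested, 4.88% were lower in both. ECM22 and ARE1 (6.67% of the 30) were higher in both, against 7.04% of all genes, and none of the 30 was called in opposite directions, against 1.58%. A further 6 genes were past the threshold with AMB alone as lower (ERG1, ERG7, ERG11, ERG24, ERG25 and ERG3), 4 with AMB-LF alone (ERG10, ERG12, ERG20 and ERG28), and 7 (23.3%) were called in neither. Over all genes these shares were 12.5%, 9.71% and 47.2%. A gene past the threshold in one treatment and not in the other is not thereby shown to differ, so the difference was tested within the same model.

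The difference between the responses was called for 2 genes, IDI1 and ERG11, as higher with AMB-LF than with AMB, and for 0 as lower in edgeR's quasi-likelihood test. The share called over all genes was 10.1% higher and 7.46% lower. Of the 30 genes, 4 were higher and 3 lower at an unadjusted p below 0.05, as were 32.8% of all genes in either direction, and the likelihood ratio test and DESeq2 both called 2 higher and 0 lower. The difference for IDI1 was 0.55 (SE 0.13, adjusted p = 0.0228) and for ERG11 0.46 (SE 0.14, adjusted p = 0.0416). The IDI1 call was lost without control for AMB replicate 1 or without AMB-LF replicate 1, with a value between 0.46 and 0.75 over the 12 omissions. The ERG11 call was lost in 10 of the 12 omissions, with a value between 0.39 and 0.56. With the control labels exchanged the differences were -0.52 for IDI1 and -0.61 for ERG11. The 5 genes of oxygen-using steps all had a difference above 0 (median 0.26, from 0.19 to 0.46), and ERG11 was the only one called. This was not particular to them, since all 6 genes from zymosterol to ergosterol, ERG3 and ERG5 among them, were above 0 (median 0.21). Of the 25 genes outside oxygen-using steps, 13 were above 0 and 12 below. With the control labels exchanged all 5 genes of oxygen-using steps were below 0, at -0.23 for ERG1, -0.36 for ERG25, -0.26 for ERG3, -0.41 for ERG5 and -0.61 for ERG11.

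The difference between responses is made up of the difference between the treated groups and the difference between the controls, and these were examined separately. Between AMB-LF and AMB cultures, 0 of the 30 genes were called in either direction by the quasi-likelihood test, the likelihood ratio test or DESeq2, with 0.0183% of all genes higher and 0.312% lower. At an unadjusted p below 0.05 there was 1, ECM22, at 0.21 (SE 0.08), beside 7.07% of all genes in either direction. The largest of the 30 values was thus 0.21 and the 95% confidence intervals of all 30 lay between -0.32 and 0.38 on the log2 scale. For ERG11 the treated groups differed by -0.08 (SE 0.09) and for IDI1 by 0.02 (SE 0.08). The 0.03 µg/mL dose of AMB was shared, but the durations of 60 and 50 minutes were not.

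Between the control for AMB-LF and the control for AMB, 7 of the 30 genes were higher and 6 lower, with 15.2% of all genes higher and 16.6% lower. Scaled to library size alone, which moved the median of all genes from 0.03 to 0.14, 10 were higher and 3 lower, beside 27.5% and 13.4%. These untreated groups received no drug, and by their labels they differ in duration. IDI1 was at 247, 221 and 211 CPM in the control for AMB, and every library of the control for AMB-LF was lower, at -0.53 (SE 0.09, adjusted p = 0.00219). ERG11 was lower by the same amount, at -0.53 (SE 0.10, adjusted p = 0.00245), and ERG5 (-0.34), ERG3 (-0.31), ERG25 (-0.30) and ERG24 (-0.29) were lower too. ARE2 was at 118, 117 and 132 CPM in the control for AMB and above 169 CPM in each control for AMB-LF, at 0.49 (SE 0.09, adjusted p = 0.00261). ERG27 (0.42), ECM22 (0.33), ERG20 (0.32), ERG28 (0.32), TGL1 (0.25) and HMG2 (0.23) were higher. Within lane 1, IDI1 was at -0.61, ERG11 at -0.56 and ARE2 at 0.51, all still called. Without control for AMB replicate 1, the only such control on lane 1, 0 genes were higher and 2 lower, IDI1 and ERG11, and without control for AMB replicate 2 or control for AMB-LF replicate 2 there were 3 lower. These omission counts, too, stand without the share of all genes called in the same fits. The zinc limitation genes differed between the same untreated groups, and their part in the values of the 30 genes was not tested.

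**Figure D4:**
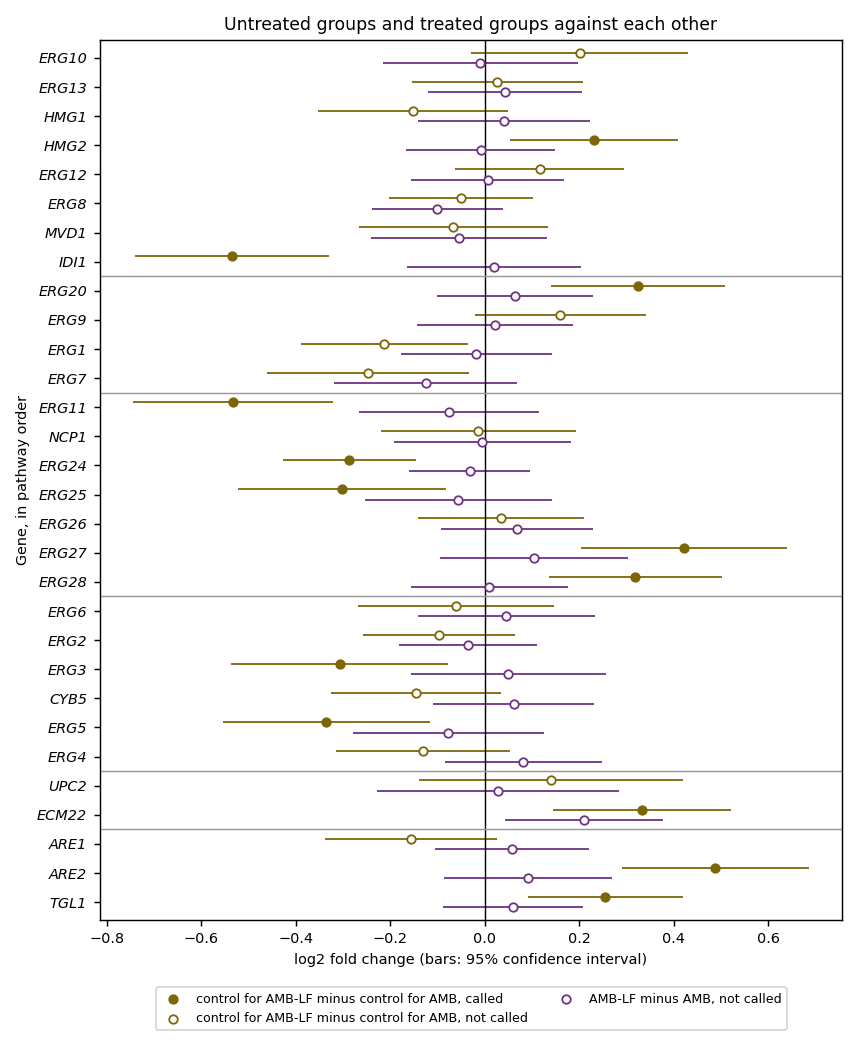
Log2 fold change between the untreated groups (control for AMB-LF minus control for AMB, brown) and between the treated groups (AMB-LF minus AMB, purple), with 95% confidence intervals; filled circles were called. The untreated groups differed for 13 genes, from IDI1 and ERG11 at -0.53 to ARE2 at 0.49, and the treated groups for none at an adjusted p below 0.05.

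LF alone was compared with its control in the NextSeq libraries. The quasi-likelihood test of edgeR called 0 of the 30 genes and 0% of the 5445 genes tested. Of the 30, 1 gene, ARE1, had an unadjusted p below 0.05, as had only 0.147% of all genes in this fit without a block. Replicate numbers mark separate days in these groups, and with the replicate as a block 4 of the 30 had an unadjusted p below 0.05, as had 7.68% of all genes, and 0 were called. With the block, ARE1 was at 0.15 (95% interval 0.05 to 0.26), NCP1 at 0.17 (0.02 to 0.33), CYB5 at -0.18 (-0.34 to -0.03) and ERG28 at -0.14 (-0.24 to -0.04), all with adjusted p of 0.493 or above. The likelihood ratio test and DESeq2 called 0 of the 30 with and without the block. ERG11 was at 776, 752 and 549 CPM with LF and 814, 700 and 610.5 CPM in its control, and ERG5 was at 208, 205 and 196 CPM with LF and 207, 210 and 214 CPM in its control. Replicate 3 was lowest for ERG11 in both groups, and the groups overlapped. Over the 30 genes, the blocked intervals lay between -0.34 and 0.33, so that a change as large as that of ERG5 with AMB was outside each of them.

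**Figure D5:**
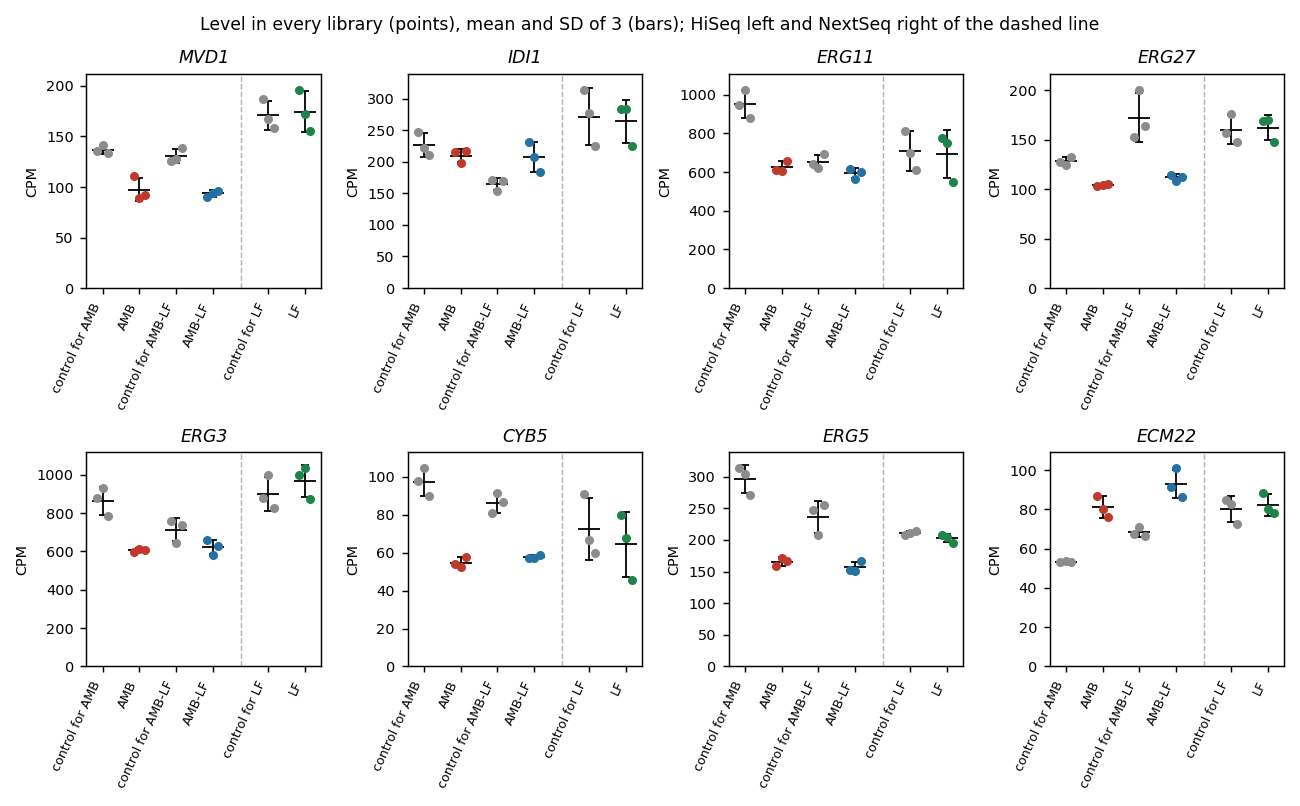
CPM of 8 genes in every library (points) with the mean and SD of 3 (bars), HiSeq groups left and NextSeq groups right of the dashed line; levels are not compared across the line. Between the treated HiSeq groups the quasi-likelihood test called 0 of the 8 genes. ECM22 alone of the 8 had an unadjusted p below 0.05 there, as had 7.07% of all genes tested. Between the controls of these groups IDI1, ERG11, ERG27, ERG3, ERG5 and ECM22 were called.

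The genes with and without an upstream element were counted next. With AMB, 7 of the 9 genes with a sterol response element were lower and 0 higher (median -0.29), against 16.6% lower and 20.4% higher among all 367 tested genes with the same letters. With AMB-LF, 5 of these 9 were lower, against 12.5% of the 367. Of the 12 genes with an anaerobic element 7 were lower with AMB and 4 with AMB-LF, against 22.8% and 15.8% of all 158 tested genes with it. Of the 11 sterol genes with neither element, 3 (27.3%) were lower with AMB and 5 (45.5%) with AMB-LF, against 18.5% and 15.4% of all 4892 tested genes with neither. With either element, 63.2% of the 19 were lower with AMB and 42.1% with AMB-LF, against 18.3% and 13.6% of all 514 tested genes with either. The genes that fell with AMB therefore included ERG5, which has neither, and CYB5, which has both.

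Related genes outside the 30 were counted on the same fits, to be read beside the shares of all genes called higher and lower, 18.7% and 18.4% with AMB and 14.1% and 15.1% with AMB-LF. Of 20 sterol uptake and transport genes, 6 were higher and 1 lower with AMB and 2 were higher and 4 lower with AMB-LF. LAM4, a sterol transfer protein of membrane contact sites, was at 0.57 with AMB, PRY1, a secreted sterol-binding protein, was at 0.42 with AMB-LF, and its relative PRY2 was lower in both, at -0.55 and -0.34. Of 17 other genes of sterol regulation and modification, 2 were higher and 3 lower with AMB and 2 higher and 4 lower with AMB-LF. SUT1, a regulator of sterol uptake, was at 1.11 and 0.94, a larger rise than that of any of the 30. ATF2, which acetylates sterols, was at -0.60 with AMB. MCR1, which encodes a mitochondrial cytochrome b5 reductase, was at -0.41 with AMB-LF, and with AMB it was higher, at 0.32. With the control labels exchanged MCR1 turned in both comparisons, to -0.19 with AMB and 0.092 with AMB-LF, and the ATF2 call with AMB was lost at -0.29. Of 6 tested anaerobic cell wall genes 3 were higher with AMB and 1 with AMB-LF, led by TIR3 at 0.79 and 0.96.

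Branches that neighbour the sterol pathway were counted in the same way and against the same shares of all genes (18.7% higher and 18.4% lower with AMB, 14.1% and 15.1% with AMB-LF). Of 14 tested non-sterol isoprenoid genes 2 were higher (COQ1 most, 0.28) and 2 lower (BET2 most, -0.42) with AMB, and 2 were lower with AMB-LF, DPP1 by most at -0.65. DPP1 was at 0.097 with the control labels exchanged, since its level was 148 to 159 CPM with AMB-LF, 137 to 148 CPM in the control for AMB and 216 to 295 CPM in the control for AMB-LF. The COQ1 call was lost with exchanged labels, at 0.046. Of 8 heme synthesis genes 1 was higher (HEM12, 0.18) and 1 lower (HEM1, -0.24) with AMB, and HEM3 was higher at 0.55 with AMB-LF. With exchanged control labels HEM1 turned to 0.11, and HEM12 (0.066) and HEM3 (0.18) were not called. Of 14 sphingolipid genes 2 were higher and 5 lower with AMB and 2 higher and 2 lower with AMB-LF. ORM2, a brake on sphingolipid synthesis, was lowest in both, at -0.63 and -0.89, LAC1 was at 0.30 with AMB and LAG1 at 0.30 with AMB-LF, the latter -0.0019 with exchanged control labels.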

How the data were processed

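Reads were trimmed by the authors (HiSeq), aligned to R64 by TopHat with Bowtie, and assigned to coding sequences by HTSeq (0.5.3p9 for HiSeq), ignoring strand and dropping reads in overlapping genes. The count table as deposited by the authors holds raw counts. A gene entered the fit with 7 CPM in 6 or more of 12 HiSeq, or 3 or more of 6 NextSeq, libraries (when fewer than 11 HiSeq libraries were fitted, in 0.5 of them, rounded down). The quasi-likelihood test of edgeR 4.0.16 (R 4.3.3) with TMM scaling was run on the 12 HiSeq libraries jointly, with a lane term, and on the 6 NextSeq libraries. P-values were adjusted over all genes tested (Benjamini and Hochberg). Reported CPM include the TMM factors. Alternatives were a likelihood ratio test, DESeq2 1.42.0, other scalings, filters, lane terms and blocks, omitted libraries and exchanged control labels. Replicate numbers mark separate days for LF and its control, and same-numbered libraries there deviated together (r of 0.884, 0.779 and 0.946 across genes). P-values measure the spread between the cultures of a group, which exceeded counting noise. The code was tested on simulated counts. All 30 genes are named, with values per library for the called gene of largest change in each stage and treatment, the paralog pairs, ERG11 and ERG3, each in both treatments. Values of IDI1 in its AMB comparison and those with LF were picked after they were seen. Of the other lists the largest called change in each direction is named. Genes and lists were chosen with earlier results of these data known. Of 6692 gene names 6008 matched R64, and the other 684 held 0.361% of HiSeq and 0.265% of NextSeq counts. Group averages and test results deposited by the authors were not used.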

Additional observations from a re-analysis of the deposited data

Results flagged for a closer look

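The response of IDI1 and that of ERG11 differed between the treatments in a test of the difference itself. For IDI1 the log2 difference (AMB-LF minus AMB, each against its control) was 0.55 (SE 0.13, adjusted p = 0.0228 in edgeR's quasi-likelihood test), and for ERG11 it was 0.46 (SE 0.14, adjusted p = 0.0416). These were 2 of the 30 genes, and over all genes tested 10.1% were called higher and 7.46% lower in this difference. Of 12 fits that each left out 1 library, the IDI1 call held in 10 and the ERG11 call in 2. The treated groups differed by 0.02 for IDI1 and -0.08 for ERG11, and the controls by -0.53 for each. With the control labels exchanged, both differences changed sign, and their cause was not tested.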

How the results depend on the processing

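No gene called with AMB or AMB-LF against its control changed direction under any alternative but exchanged control labels. The likelihood ratio test, DESeq2, RLE scaling and edgeR's own filter moved no count of called genes by over 1.5 times in any comparison. The counts that follow stand without the share of all genes called in the same fits. They show how the calls moved with the setting, and do not compare the sterol genes with other genes. Within lane 1 alone and lane 2 alone (chosen after seeing the data, with fewer libraries) AMB had 1 and 1 higher and 4 and 5 lower. Lane 1 alone gave 2 lower with AMB-LF, 0 higher in the difference between responses, and 1 higher and 2 lower between the controls. Lane 2 holds no control for AMB-LF, so none of these has a value there. With only the 6 libraries compared, AMB-LF had 1 higher and 3 lower and the controls 1 higher and 1 lower. Scaling to library size alone gave 1 higher and 2 lower in the difference and 3 lower between the controls. The difference had 2 lower without a lane term and 1 higher without the filter on low counts. Same-numbered HiSeq libraries of a treatment and its control did not deviate together (r of -0.342, -0.521 and -0.36 for AMB and -0.345, -0.0964 and 0.0354 for AMB-LF). These r were not adjusted for lane, which some of the same-numbered libraries did not share, so they cannot settle whether the cultures were paired. With a replicate block, AMB-LF had 5 lower, the difference 0 higher (IDI1 0.44, ERG11 0.46), the controls 2 higher and 3 lower. The block changed no call with LF. With exchanged control labels the difference had 6 higher and 4 lower. Among genes called with either setting, directions then turned with AMB for IDI1 (0.39), ERG24 (0.052), ERG25 (0.021), ERG28 (-0.32), ARE2 (-0.32) and TGL1 (-0.22). They turned with AMB-LF for IDI1 (-0.13), ERG24 (-0.27), ERG28 (0.010) and ARE2 (0.26). In the difference they turned for IDI1 (-0.52), ERG20 (0.39), ERG11 (-0.61), ERG24 (-0.32), ERG27 (0.52), ERG28 (0.33), ERG5 (-0.41), ECM22 (0.54), ARE2 (0.58) and TGL1 (0.31). The cause was not tested for any of these. Leaving out 1 library at a time gave 2 to 3 higher and 9 to 14 lower with AMB, 2 to 4 and 2 to 14 with AMB-LF, 0 to 3 and 0 to 1 in the difference (0 higher without control for AMB replicate 1 or AMB-LF replicate 1), and 0 to 7 and 2 to 7 between the controls. With 3 libraries a group and fewer per lane, small changes may have been missed.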
